A study of Rattus norvegicus with 8 samples.

Results

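A set of 10 genes that mark an injured or repairing kidney tubule was followed in the kidneys of rats fed diets poor or replete in silicon (Si). They are Havcr1, Lcn2, Clu, Spp1, Vim, Sox9, Gpnmb, Vcam1, Lgals3 and Anxa2, and their measurements are all the probe sets to which the array's annotation gives 1 of these symbols and no other. This rule found 11 of 31042 probe sets, for 9 of the 10 genes. Clu and Anxa2 had a pair of probe sets each, the other 7 genes had 1 each, and the annotation used here gives no probe set the single symbol Sox9, so Sox9 was not analysed here.

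The kidneys came from female Sprague-Dawley rats aged 29 weeks. Both groups had eaten the same low-Si feed for 26 weeks and differed in their drinking water. The Si deplete group drank low-Si water, which brought its daily intake to 0.17 mg Si per kg of body weight, and the Si replete group, the control, drank water with added orthosilicic acid, which brought it to 4.1 mg Si per kg. RNA of the ground whole left kidney of 1 rat went to each Affymetrix array, with 4 Si deplete and 4 Si replete arrays, and the deposited values are log2 levels per probe set, on which log2 differences are given as log2 fold changes. How the array rats were picked from the larger cohort is not given in the sources used here, and rats may have shared cages. Rats were harvested singly, a day's harvest taking 1 rat of each diet, but the labels do not tie arrays to cages or days, so whether any arrays form pairs is unknown and p-values cover only the spread between these rats. Levels of the 4 kidneys of a diet are listed in the order of their replicate numbers.

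Injured tubule cells lose their brush border, flatten and raise genes that a healthy tubule makes less of, and those that repair lower them again. Havcr1 encodes kidney injury molecule 1, a surface protein of injured proximal tubule cells that binds phosphatidylserine and lets them take up dying neighbours, and Lcn2 encodes neutrophil gelatinase-associated lipocalin, a secreted protein that binds iron-carrying siderophores. Both proteins are measured in urine as signs of tubule damage. Clusterin (Clu) and osteopontin (Spp1) are secreted as well, whereas the intermediate filament vimentin (Vim) marks a loss of epithelial character.

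The sequences before the annotated starts of the 3 genes Havcr1, Lcn2 and Spp1 are shown because Havcr1 and Lcn2 had the largest differences between diets of the injury genes and Spp1 had the smallest p. Each is the 250 bases before the start in RefSeq (build GRCr8), 5′ to 3′ on the gene's strand, at chr10:31629528-31629777 (plus strand) for Havcr1, chr3:36081781-36082030 (minus strand) for Lcn2 and chr14:5619805-5620054 (minus strand) for Spp1. Capitals mark matches, on either strand, to a TATA box (TATAAA), an AP-1 site (TGANTCA), a STAT site (TTCNNNGAA) or the 10-base NF-kappaB consensus.
Havcr1: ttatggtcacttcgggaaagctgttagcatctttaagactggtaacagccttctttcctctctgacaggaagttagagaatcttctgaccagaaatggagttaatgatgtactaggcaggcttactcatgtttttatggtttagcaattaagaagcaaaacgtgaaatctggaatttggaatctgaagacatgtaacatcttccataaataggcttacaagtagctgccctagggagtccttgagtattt
Lcn2: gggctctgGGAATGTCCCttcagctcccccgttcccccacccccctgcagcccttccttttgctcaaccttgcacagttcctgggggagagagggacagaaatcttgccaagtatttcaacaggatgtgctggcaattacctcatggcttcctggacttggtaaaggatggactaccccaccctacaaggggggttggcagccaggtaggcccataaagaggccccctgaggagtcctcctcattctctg
Spp1: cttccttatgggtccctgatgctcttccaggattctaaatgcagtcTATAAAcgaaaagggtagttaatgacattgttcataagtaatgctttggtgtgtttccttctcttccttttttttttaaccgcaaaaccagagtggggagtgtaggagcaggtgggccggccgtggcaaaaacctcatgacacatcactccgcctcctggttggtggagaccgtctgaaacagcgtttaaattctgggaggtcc
The Havcr1 window held no match, the Lcn2 window held the NF-kappaB consensus at 242 to 233 bases before the start, and the Spp1 window held TATAAA at 204 to 199 bases before it. Of 33469 promoter windows of this length, 12.9% held TATAAA, 6.34% the AP-1 site, 7.67% the STAT site and 6.33% the NF-kappaB consensus. A match describes letters only, and nothing about binding was measured.

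Beside these genes, the whole data set is described in brief. Array medians were 3.85 to 3.92 on deplete and 3.7996 to 3.838 on replete arrays, so that every deplete median was higher, and with them subtracted the median log2 fold change of the injury probe sets was 0.89 and that of all probe sets -0.07. Levels of arrays of the same group correlated across probe sets at 0.9892 or more, and 51.3% of probe sets had a mean under 4, here called dim. Si deplete replicate 1 stood apart from the others on the principal component that held 42.1% of the variance, at 64.0 where the other 7 arrays lay at -25.9 to 19.2. The 3′ minus 5′ difference of the beta-actin controls, which grows as RNA degrades, ranged from 2.91 to 3.28 on deplete and from 3.04 to 3.19 on replete arrays, and that of the Gapdh controls was 0.58 to 0.66 and 0.62 to 0.64. The 27 measured genes of the proximal tubule list, such as Lrp2 and Slc34a1, were all above 4 in mean.

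All 11 probe sets of the injury genes had a higher mean in Si deplete kidneys, and in 9 of them, for 8 genes, the groups were fully apart, with the lowest deplete kidney above the highest replete one. A higher mean was found in 47.4% of all probe sets, and a complete separation in this direction in 4.67%, in the opposite one in 4.7% and in either in 9.37%. The injury genes were chosen with earlier results of these data known, so the counts beside these shares are a description and not a test. The median log2 fold change, taken as the deplete mean minus the replete mean, of the 11 was 0.95, against -0.01 over all probe sets. None of the 11 passed an adjusted p under 0.1 in limma over all 31042 probe sets, a rule that called 0.113% of probe sets higher and 0.0387% lower, whereas 10 had an unadjusted p under 0.05 and a higher mean, as 7.81% of all probe sets had (7.14% with a lower mean), and 3 passed by Storey's q-value, by which 0.390% of all probe sets passed as higher and 0.164% as lower. Adjusted p-values of the 10 in limma lay between 0.120 and 0.266. Without Si deplete replicate 1, 9 of the 11 still did not overlap, as 12.1% of all probe sets then did not, and none passed. In whole-kidney RNA, more cells that express a gene and more RNA per cell cannot be told apart.

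**Figure D1:**
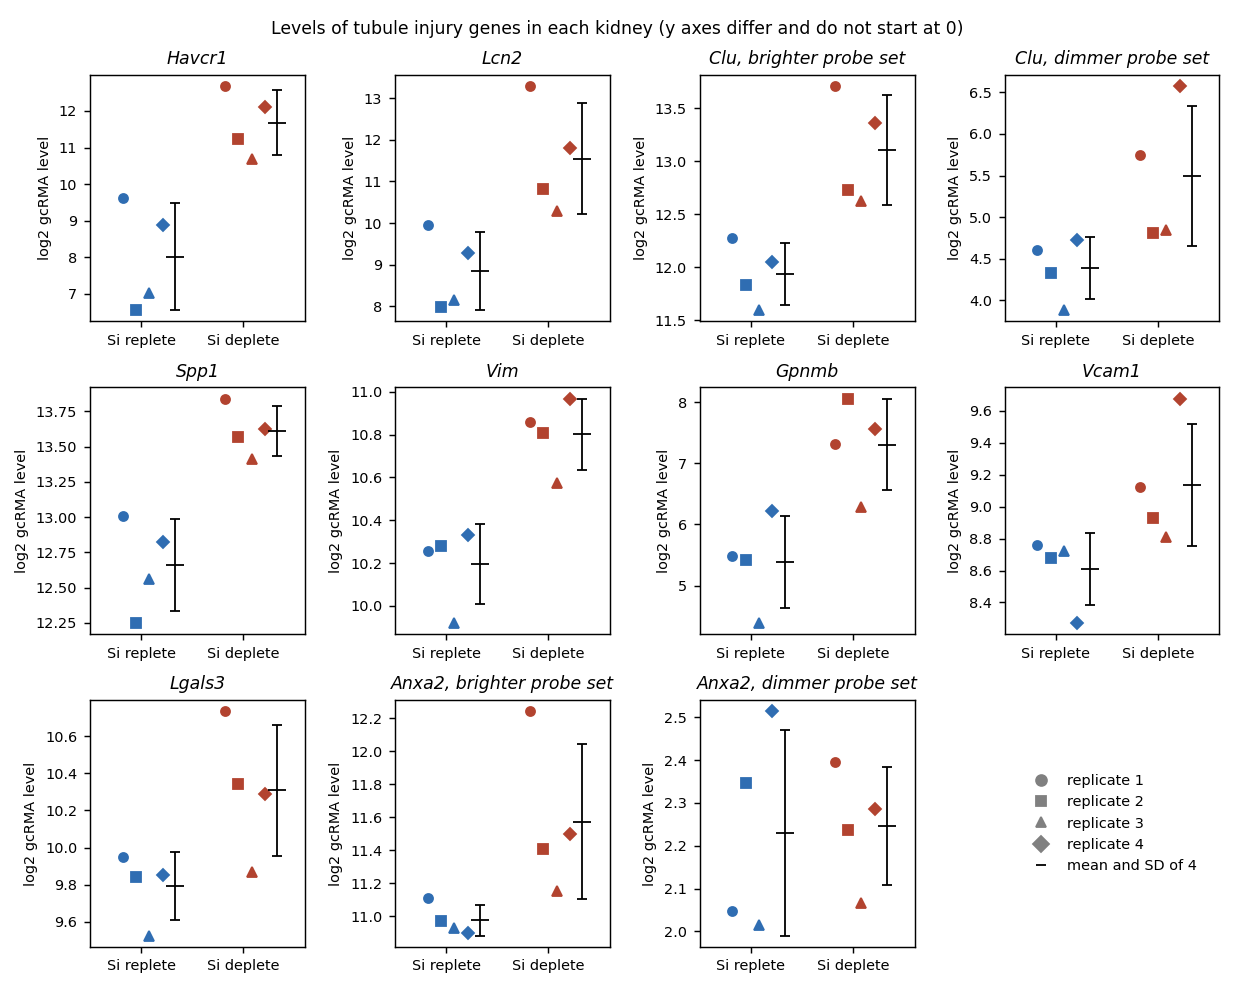
Levels (log2, gcRMA) of the 11 probe sets, with diet along the x axis. Each point is 1 kidney, its shape gives the replicate number, and bars show mean and SD over 4. Si deplete kidneys lie above all Si replete kidneys in every panel except Lgals3 and the dimmer probe set of Anxa2, and Havcr1 differs by 3.66.

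Havcr1 showed the largest increase in mean of all 31042 probe sets. Its log2 level (probe set 1387965_at) was 12.69, 11.24, 10.69 and 12.10 in the deplete kidneys and 9.61, 6.57, 7.03 and 8.88 in the replete kidneys. The lowest Si deplete kidney, replicate 3, was 1.08 above the highest Si replete kidney, replicate 1. Deplete kidneys averaged 11.68 ± 0.89 (SD, n = 4) and replete kidneys 8.02 ± 1.46 (SD, n = 4), which gives a log2 fold change of 3.66 (standard error, SE, 0.69; 95% interval 2.09 to 5.23), or 12.6-fold (4.26 to 37.4). The exact permutation test gave a 2-sided p of 0.0286, the smallest that 4 against 4 kidneys allow, and limma an adjusted p of 0.134. Within the Si replete diet alone, the highest kidney had 8.27 times the Havcr1 level of the lowest, and within the Si deplete diet 4.00 times. The pooled spread within diets, an SD of 1.21, was the 42nd largest of all probe sets. Havcr1 thus differed widely among rats on the same diet as well as between diets. Without Si deplete replicate 1 the log2 fold change was 3.32 (adjusted p = 0.169 in limma), and without Si deplete replicate 3 it was 3.99 and passed (adjusted p = 0.0878).

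Lcn2 had the third largest increase in mean of all probe sets. Its log2 level (1387011_at) was 13.30, 10.82, 10.29 and 11.80 in the deplete kidneys and 9.95, 8.00, 8.17 and 9.28 in the replete kidneys. The groups did not overlap, but Si deplete replicate 3 was only 0.34 above Si replete replicate 1. Its difference between diets was 2.70 (SE 0.66; 95% interval 1.22 to 4.19), or 6.50-fold, from 8.85 ± 0.93 (SD, n = 4) to 11.55 ± 1.32 (SD, n = 4), with an adjusted p of 0.170 in limma. Si deplete replicate 1 had a level 2.33 above the mean of the other Si deplete kidneys. Without it the log2 fold change was 2.12 (adjusted p = 0.210). Lcn2 is also made by neutrophils, whose list is described below with the other cell types.

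Clu, which encodes a secreted chaperone that binds misfolded proteins and lipids, was measured by a brighter and a dimmer probe set. On the brighter one (1367784_a_at) its log2 level was 13.71, 12.73, 12.62 and 13.36 in the deplete kidneys and 12.27, 11.83, 11.60 and 12.05 in the replete kidneys. The log2 fold change was 1.17 (SE 0.25; adjusted p = 0.152 in limma). On the dimmer one (1388246_at) the levels were 5.74, 4.81, 4.84 and 6.58 against 4.60, 4.33, 3.89 and 4.72, which differed by 1.11 (SE 0.38; adjusted p = 0.245). The groups were apart on both, by 0.35 and by 0.09, and the fold changes of the pair differed by less than the standard error of either. Si deplete replicate 1 was the highest kidney on the brighter probe set and replicate 4 on the dimmer.

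Spp1, which encodes a phosphoprotein that binds integrins and CD44 and slows crystal growth in the tubule fluid, had the smallest p of the injury genes. Its log2 level (1367581_a_at) was 13.84, 13.57, 13.41 and 13.62 in the deplete kidneys and 13.00, 12.25, 12.56 and 12.83 in the replete kidneys. The groups were 0.41 apart. Its difference between diets was 0.95 (SE 0.16; 95% interval 0.58 to 1.32), or 1.93-fold, and 60 of all probe sets had a smaller p (adjusted p = 0.120 in limma). The gene passed with an intensity trend, with dim probe sets left out and without Si deplete replicate 3, with adjusted p-values that the closing section gives. Its smaller difference than that of Havcr1 went with a much smaller spread, as the pooled SD within diets was 0.26.

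**Figure D2:**
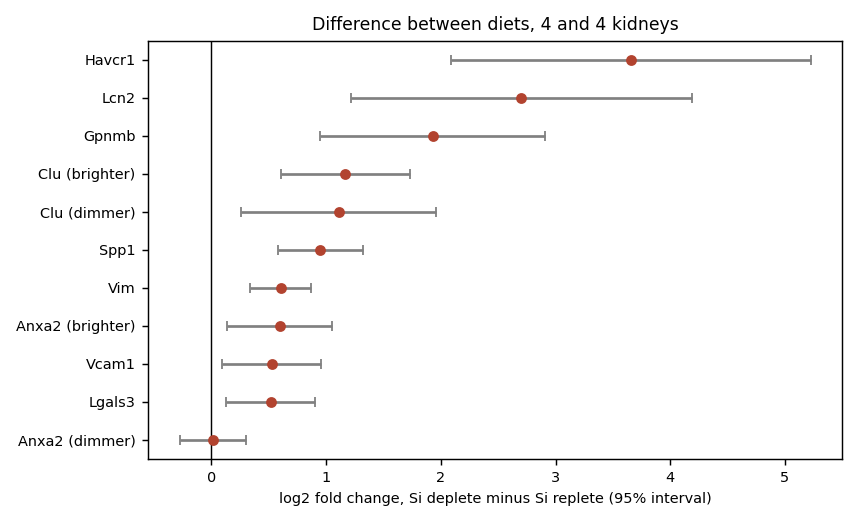
Difference of the 11 probe sets between diets (log2, deplete less replete), with 95% intervals from limma, 4 kidneys per diet. All intervals except that of the dimmer Anxa2 probe set lie above 0, and those of Havcr1 (2.09 to 5.23) and Lcn2 (1.22 to 4.19) are the widest.

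Vim encodes the intermediate filament of mesenchymal cells, endothelium and podocytes, which healthy tubule cells hardly make. Its log2 level (1367574_at) was 10.86, 10.81, 10.57 and 10.97 in the deplete kidneys and 10.26, 10.28, 9.92 and 10.33 in the replete kidneys. The groups were 0.24 apart, and the log2 fold change was 0.60 (SE 0.12; adjusted p = 0.134 in limma). Genes of other cells that hold vimentin had these values. Of 9 measured podocyte genes all had a lower mean in Si deplete kidneys, and the 13 endothelial genes had a median log2 fold change of 0.04. The median over 15 fibroblast and mural cell genes was 0.34, with a mean level of the list between 7.06 and 7.86 in deplete kidneys and between 6.78 and 7.22 in replete kidneys. None of the genes of these lists passed in limma. There an unadjusted p under 0.05 was found for 3 podocyte genes, all lower, and 6 fibroblast and mural genes, all higher. It was also found for 3 endothelial genes, 2 of them higher and 1 lower. Of all 14217 genes, 10.5% had such a p with a higher mean and 7.95% with a lower one. The part of these cells in the difference of Vim was not tested.

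Gpnmb encodes a transmembrane glycoprotein of lysosomes that macrophages and stressed epithelial cells make. Its log2 level (1368187_at) was 7.32, 8.06, 6.28 and 7.57 in the deplete kidneys and 5.48, 5.42, 4.39 and 6.22 in the replete kidneys. The gap between the groups was 0.06, against a spread within each diet of 0.75 (SD, n = 4). The log2 fold change was 1.93 (SE 0.43), or 3.81-fold, with an adjusted p of 0.157 in limma. Unlike the secreted injury proteins, Gpnmb was highest in Si deplete replicate 2, and its order there was 2, 4, 1 and 3. The mean level of 19 macrophage and myeloid genes followed that same order, at 6.89, 6.76, 6.49 and 6.21. In Si replete kidneys that mean level ran in the order 4, 2, 1 and 3 (6.56, 6.17, 5.98 and 5.57), whereas Gpnmb ran in the order 4, 1, 2 and 3. Of these 19 genes 18 had a higher mean in Si deplete kidneys, the ranges of their mean level overlapped (6.21 to 6.89 and 5.57 to 6.56), and none passed in limma. Of the 19 genes, 4 were dim (Cd68, Itgam, Cd163 and Trem2), and the others, such as Ptprc (mean level 7.66) and Laptm5 (6.95), were not. The part of these cells in the Gpnmb difference was not tested.

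Vcam1 encodes an adhesion receptor for leukocyte integrins that cytokines induce on endothelium, and that proximal tubule cells which fail to repair make in mouse and human kidneys. Its log2 level (1368474_at) was 9.12, 8.93, 8.81 and 9.68 in the deplete kidneys and 8.76, 8.68, 8.72 and 8.27 in the replete kidneys. The groups were 0.05 apart, Si deplete replicate 4 was the highest kidney and Si replete replicate 4 the lowest. Its difference between diets was 0.53 (SE 0.19; adjusted p = 0.266 in limma), the largest adjusted p of the 10 with an unadjusted p under 0.05, and it was 0.35 without Si deplete replicate 4. Of the 7 injury genes with a promoter sequence in the table used, Lcn2, Vim and Vcam1 held the NF-kappaB consensus, as 6.33% of all 33469 windows did. The matches in Vim overlapped, at 193 to 182 bases before the start. The Vcam1 window is shown with its matches in capitals, at chr2:206742784-206743033 (minus strand, GRCr8).
Vcam1: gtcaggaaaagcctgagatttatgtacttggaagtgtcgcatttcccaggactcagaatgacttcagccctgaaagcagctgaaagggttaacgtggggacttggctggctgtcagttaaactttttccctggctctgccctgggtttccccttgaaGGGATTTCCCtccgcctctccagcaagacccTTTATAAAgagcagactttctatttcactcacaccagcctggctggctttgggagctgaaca
The consensus lay 93 to 84 bases before the annotated start of Vcam1 and TATA boxes on opposite strands, overlapping, at 62 to 57 and 60 to 55 bases before it. AP-1 letters were found in the windows of Gpnmb, at 87 to 81 bases before the start, and Anxa2, at 123 to 117. Over all windows, 6.34% held them. Clu, Sox9 and Lgals3 had no entry.

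Lgals3 encodes galectin-3, a lectin that binds galactose-bearing glycans and is made by intercalated cells and macrophages, and it was the only bright gene of the 9 whose groups overlapped. Its log2 level (1386879_at) was 10.73, 10.34, 9.87 and 10.29 in the deplete kidneys and 9.95, 9.84, 9.53 and 9.85 in the replete kidneys. Si deplete replicate 3 lay below Si replete replicate 1, and the other 3 Si deplete kidneys lay above all Si replete kidneys. The log2 fold change was 0.52 (SE 0.17; adjusted p = 0.239 in limma), and the exact permutation test gave a 2-sided p of 0.0571.

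Anxa2 encodes a calcium-dependent membrane-binding protein that pairs with S100a10. On its brighter probe set (1367584_at) the log2 level was 12.24, 11.41, 11.15 and 11.50 in the deplete kidneys and 11.11, 10.97, 10.93 and 10.90 in the replete kidneys. Si deplete replicate 1 was 0.89 above the mean of the other Si deplete kidneys, and the gap between groups was 0.04. Its difference between diets was 0.60 (SE 0.20; adjusted p = 0.245 in limma) with Si deplete replicate 1 and 0.37 (adjusted p = 0.239) without it. The dimmer probe set (1392250_at) gave levels between 2.07 and 2.40 in deplete kidneys and between 2.01 and 2.51 in replete kidneys, at the lower end of the scale, and a log2 fold change of 0.02 with a 95% interval of -0.28 to 0.31.

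**Figure D3:**
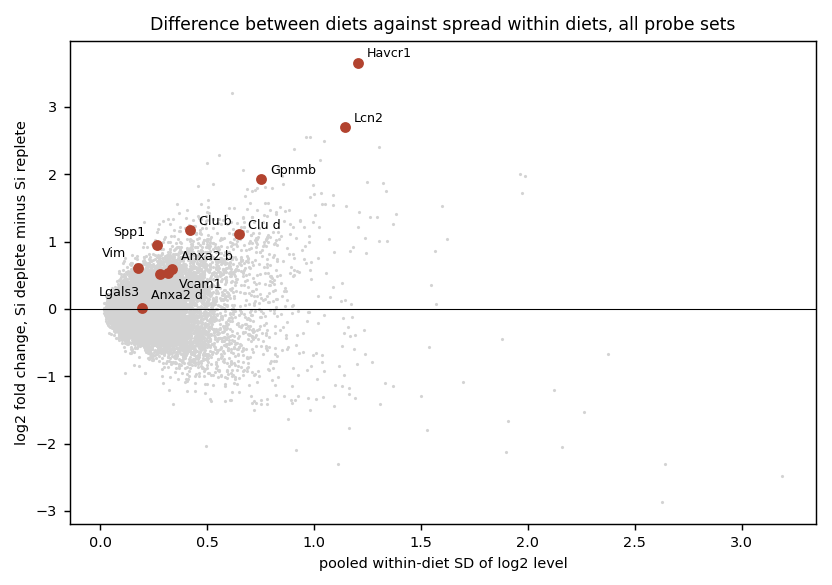
Difference between diets (deplete less replete) against the pooled SD within diets, both on the log2 scale, for all 31042 probe sets (grey) and the 11 of the injury genes (red; b and d mark the brighter and dimmer probe set of a gene). Havcr1 lies highest, at 3.66, with an SD of 1.21, whereas Vim lies at 0.60 with an SD of 0.18.

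The order of the kidneys within a diet was then set side by side across the injury genes. Taking the brightest probe set of each of the 9 genes, Si deplete replicate 3 was the lowest Si deplete kidney for all 9, and replicate 1 was the highest for 6, replicate 4 for 2 and replicate 2 for 1. Replicate 3 was also the lowest Si deplete kidney in mean level of podocyte (7.16), fibroblast and mural (7.06) and macrophage and myeloid (6.21) genes. So it was for the lymphocyte, urothelial, red blood cell, upstream regulator and other injured tubule lists described below. It was not the lowest for the proximal tubule, loop and distal tubule, collecting duct, endothelial, neutrophil and partner lists. Havcr1, Lcn2, Clu, Spp1 and Anxa2 shared the order 1, 4, 2 and 3. Among Si replete kidneys, replicate 1 was the highest for 7 genes and replicate 4 for the other 2, Vim and Gpnmb, while the lowest was replicate 3 for 4 genes, replicate 2 for 3 and replicate 4 for 2. Setting every pair of genes against every pair of kidneys within a diet, 176 of 216 comparisons (81.5%) ran in the same direction in Si deplete and 146 of 216 (67.6%) in Si replete kidneys, a description only, since the genes share arrays. No such share was computed for other genes, and Si deplete replicate 1 stood apart over all probe sets, as described above. Relative to the Si replete mean, the median shift of the 9 genes was 1.26, 0.79, 0.68 and 1.07 in the deplete kidneys and 0.16, -0.00467, -0.28 and 0.13 in the replete kidneys. Si deplete replicate 3 had the smallest shift of its diet and Si replete replicate 1 the largest of its own, and 8 of the 9 genes were still higher in the former.

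**Figure D4:**
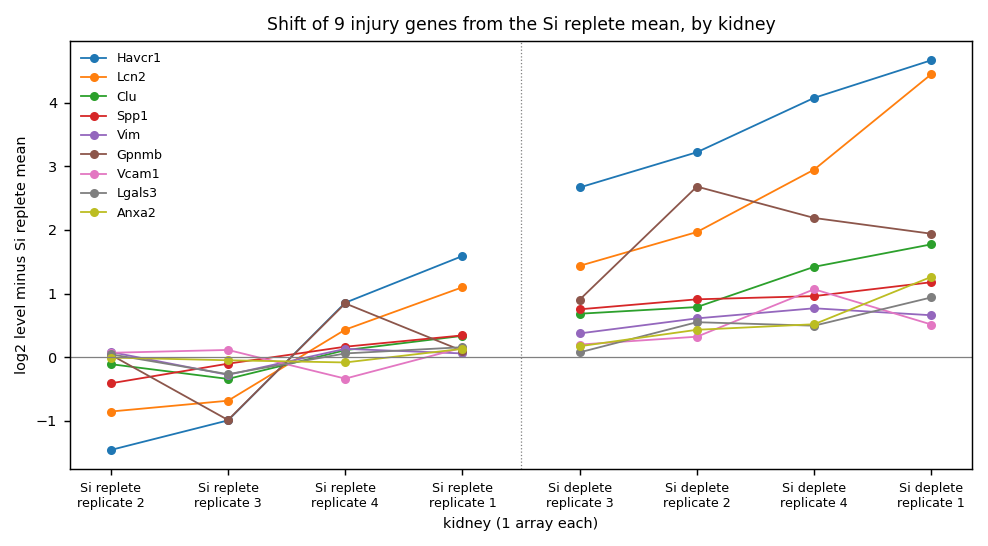
Log2 level of each of the 9 injury genes (brightest probe set) minus its Si replete mean, in each kidney. Kidneys are ordered within each diet by their Havcr1 level, and lines join the values of a gene within a diet. Havcr1 reaches 4.67 and Lcn2 4.45 in Si deplete replicate 1, and all 9 genes are lowest among Si deplete kidneys in replicate 3.

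The genes most like Havcr1 in level over the 8 arrays were sought among 9488 other genes with a mean of 4 or more. Spp1, itself an injury gene, came first (Pearson r 0.989 over 8 arrays, and 0.961 once the mean of each diet was removed). It was followed by Lgals3bp (0.983 and 0.943), the acute-phase protease inhibitor Serpina3n (0.982 and 0.939), the ubiquitin-conjugating enzyme Ube2o (0.980 and 0.917) and Tifa, an adaptor of NF-kappaB signalling (0.979 and 0.914). For Lcn2 they were the actin cross-linker Actn1 (0.991 and 0.980), the procollagen protease Bmp1 (0.989 and 0.967), the lipopolysaccharide-binding protein Lbp (0.986 and 0.959), Ifi27l2b (0.985 and 0.958) and Clu (0.983 and 0.954). These values were picked as the highest of these genes and describe likeness only. Serpina3n differed by 2.55 between diets (SE 0.55) and Lbp by 2.55 (SE 0.56), but only Lgals3bp of the genes named here passed in limma.

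Partners of the injury proteins were read from a list of 20 genes, of which 18 were measured, 1 passed as higher and none as lower, with a median log2 fold change of 0.06, against 0.000131 over all 14217 genes. Of those 14217 genes, 24 passed as higher and 5 as lower. Of the 18 measured partner genes, 6 were dim (Itgb3, Itga9, Lrp8, Trem2, Mmp9 and Plg). The gene of the list that passed was Lgals3bp, whose secreted product binds galectin-3. Its log2 level was 10.06, 9.88, 9.63 and 9.78 in the deplete kidneys and 9.21, 8.58, 8.70 and 9.02 in the replete kidneys. It rose by 0.96 (SE 0.15; adjusted p = 0.0921 in limma). S100a10, the partner of annexin A2, differed by 0.50 (SE 0.20; adjusted p = 0.308), and by 0.28 without Si deplete replicate 1. The integrin chain Itgb1 differed by 0.32 (SE 0.09; adjusted p = 0.192). Receptors that take up lipocalin 2, picked out after their values were seen, had differences of -0.09 (SE 0.12) for Lrp2, or megalin, and -0.20 (SE 0.16) for Slc22a17. Without Si deplete replicate 1 Lrp2 differed by 0.01, and without Si deplete replicate 4 Slc22a17 differed by -0.10.

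Regulators that act upstream of injury genes, such as NF-kappaB and cytokine receptor genes, were measured for 31 of 35 listed genes, and 29 had a higher mean in Si deplete kidneys. Their median log2 fold change was 0.48, 1 passed as higher, none passed as lower, and 16 had an unadjusted p under 0.05 and a higher mean. Of all 14217 genes, 50.0% had a higher mean, 24 passed as higher and 5 as lower, and 10.5% had such a p and a higher mean. This list was chosen with earlier results of these data known, and 8 of the 31 genes were dim (Socs3, Il6, Il1b, Tnf, Fosl1, Runx1, Areg and Sox11). Il6st, the shared signal-transducing receptor of the interleukin-6 family, was the listed gene that passed. It rose by 0.57 (SE 0.09; adjusted p = 0.0864 in limma) on the brightest of its 4 probe sets, with 0.41 to 0.51 on the other 3, none of which passed. Its levels were 10.68, 10.48, 10.48 and 10.47 in the deplete kidneys and 9.97, 9.83, 10.10 and 9.91 in the replete kidneys. Nfkb1 differed by 0.59 (SE 0.10; adjusted p = 0.125), Ets1 by 0.48 (SE 0.10) and Runx1, which was dim, by 0.80 (SE 0.17). Il6st and Lgals3bp each failed to pass with any single array other than Si deplete replicate 3 left out, at adjusted p-values of 0.108 to 0.312 for Il6st and 0.126 to 0.308 for Lgals3bp, although the difference kept its sign.

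Another 40 genes that injured tubules are known to induce, from cell surface receptors to fibrinogen chains, were listed, and 39 were measured. Of these, 35 had a higher mean in Si deplete kidneys, 17 separated the diets completely in that direction, and the median log2 fold change was 0.66. A higher mean was found in 50.0% of all 14217 genes, and such a separation in 4.67% of all probe sets. The list was chosen with earlier results of these data known, and 5 of the 39 were dim (Krt20, Cxcl1, Hmox1, Mmp7 and Ehf). None of the 39 passed on its brightest probe set in limma, and 21 had an unadjusted p under 0.05 and a higher mean, as 10.5% of all 14217 genes had. The smallest p belonged to Cd44, a hyaluronan and osteopontin receptor, with a difference of 1.17 (SE 0.21; adjusted p = 0.125). Its other probe set rose by 1.82 (SE 0.27; adjusted p = 0.0864). Tnfrsf12a, the receptor of the cytokine TWEAK, differed by 1.33 (SE 0.31), the stress cytokine Gdf15 by 1.20 (SE 0.28) and the stress transcription factor Atf3 by 1.76 (SE 0.41). The mean level of the 39 genes was 9.01, 8.15, 7.84 and 8.44 in the deplete kidneys and 7.77, 7.52, 7.55 and 7.63 in the replete kidneys. It ordered the kidneys of each diet as Havcr1 did, and the diets did not overlap.

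**Figure D5:**
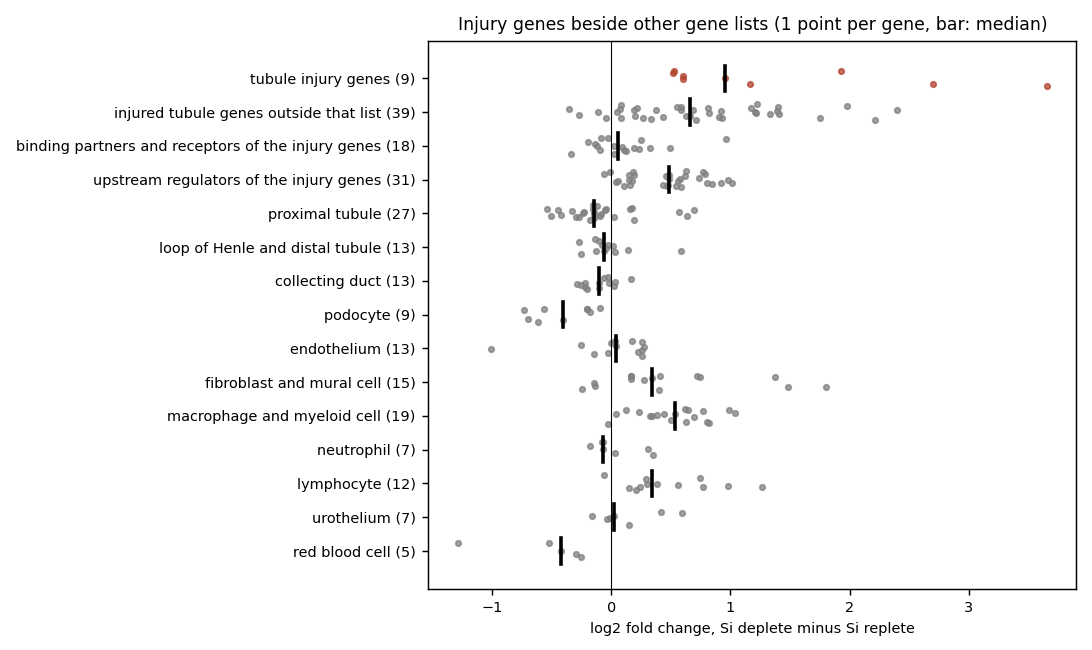
Difference between diets (log2, deplete less replete) of each measured gene on its brightest probe set, for the 9 injury genes (red) and 14 other lists (grey), with the number of genes in brackets and a bar at the median. The median is 0.95 for the injury genes, 0.66 for the other injured tubule genes and -0.15 for the proximal tubule genes.

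Genes of healthy tubule segments had smaller differences. Of 27 proximal tubule genes 20 had a lower mean in Si deplete kidneys, with a median log2 fold change of -0.15, and none passed in limma, where 1 had an unadjusted p under 0.05. That gene was the fatty acid transporter Slc27a2 (-0.45; SE 0.17). The organic anion transporter Slc22a6 differed by -0.51 (SE 0.24) and the cytochrome Cyp2e1 by -0.54 (SE 0.25), whereas the glucose transporter Slc2a2 differed by 0.64 (SE 0.32). Without Si deplete replicate 1 the first 3 of these differed by -0.27, -0.25 and -0.31, and without Si replete replicate 3 Slc2a2 differed by 0.31. The mean level of the list was lowest in Si deplete replicate 1, at 11.002, where Havcr1 and Lcn2 were highest, and its ranges overlapped (11.002 to 11.67 and 11.28 to 11.81). The loop and distal list (9.34) and the endothelial list (7.80) were also lowest in that kidney. Among Si replete kidneys the proximal tubule list was lowest in replicate 3 (11.28) and highest in replicate 4 (11.81), where Havcr1 was at 7.03 and 8.88. Medians were -0.06 for 13 genes of the loop of Henle and distal tubule, where Calb1 differed by -0.27 (SE 0.09) and Ptger3 by 0.59 (SE 0.22), and -0.10 for 13 of the collecting duct, where Slc4a1 differed by -0.26 (SE 0.13), and by -0.16 without Si replete replicate 3. None of either list passed in limma, where 2 genes of the loop and distal list, Calb1 and Ptger3, and none of the collecting duct list had an unadjusted p under 0.05. Of all 14217 genes, 10.5% had such a p with a higher mean and 7.95% with a lower one.

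Markers of other cell types that could carry the injury transcripts gave the following values, and their part in the differences was not tested. Of 7 measured neutrophil genes 6 were dim, 3 had a higher and 4 a lower mean. They were led by the dim Csf3r (0.35; SE 0.14) and Fcnb (0.31; SE 0.12). The mean level of the list lay between 2.45 and 3.16 in deplete kidneys and between 2.65 and 2.90 in replete kidneys. It was highest in Si deplete replicate 1, where Lcn2 was highest too, and lowest in Si deplete replicate 4. The 19 macrophage and myeloid genes had a median log2 fold change of 0.54, led by Ptprc (0.77; SE 0.23) and Laptm5 (0.98; SE 0.30). The 12 lymphocyte genes had a median of 0.34, 8 of them were dim, and Lck differed by 1.27 (SE 0.33). Fibroblast and mural genes were led by Fn1 (0.72; SE 0.13) and Col1a1 (1.80; SE 0.42), and podocyte genes by Plce1 (-0.62; SE 0.21; -0.39 without Si deplete replicate 1). Of 13 endothelial genes 8 had a higher and 5 a lower mean, with Vwf at -1.02 (SE 0.32), Esam at 0.28 (SE 0.10) and Plvap at 0.26 (SE 0.11). The median was 0.02 for 7 urothelial genes, 5 of them dim, led by the dim Upk1b (0.41, SE 0.20). It was -0.42 for 5 red blood cell genes, 2 of them dim, led by the dim Ahsp (-0.52, SE 0.19). No gene of these lists passed in limma. There an unadjusted p under 0.05 was found for 8 macrophage and myeloid, 2 neutrophil and 3 lymphocyte genes, all with a higher mean. It was also found for 4 red blood cell genes, all with a lower mean, and for 0 urothelial genes. Of all 14217 genes, 10.5% had such a p with a higher mean and 7.95% with a lower one.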

How the data were processed

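Kidney RNA of 8 rats was measured on Affymetrix rat expression arrays, 1 rat per array and 4 per diet. The authors deposited log2 levels per probe set, made with gcRMA (GCRMA 2.36.0 in the submitters' processing notes), which corrects background by probe sequence, normalizes arrays together and summarises probes; such levels are not counts, and the number of arrays limits the precision. These levels were used as deposited. After 57 control probe sets were left out, 31042 were fitted in limma 3.58.1 (R 4.3.3) as Si deplete minus Si replete, without a block, and p-values were adjusted by Benjamini-Hochberg over all of them, with adjusted p under 0.1 as the threshold. Exact permutation tests used all 70 arrangements. The fit was checked on simulated data.

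Gene names came from the platform annotation, where 20826 probe sets had 1 symbol, 436 several and 9780 none. No build is named for the probes in the sources used. The injury genes and the lists were chosen with earlier results of these data known. Every injury gene was named with every probe set, up to 4 genes per list by smallest p on the brightest probe set, and the 5 genes most like Havcr1 and Lcn2. The alternatives tried were array weights, a robust prior, an intensity trend, a filter at a mean of 4, array medians subtracted, quantile normalization, a replicate block, Storey's q-value, adjusted p under 0.05, gene means and leaving out each array.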

Additional observations from a re-analysis of the deposited data

Results flagged for a closer look

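Of 134 groups of 4 arrays tested, 5 held an array far from the other 3, where chance gives about 1 in 20. Vcam1 was at 8.27 in Si replete replicate 4 and at 8.68 to 8.76 in the other Si replete kidneys. In Si deplete replicate 1, Il6st, the interleukin-6 family receptor, was at 10.68 (the others at 10.47 to 10.48), the podocyte gene Plce1 at 5.71 (6.56 to 6.65) and the keratin Krt15 at 4.69 (2.97 to 3.21). The collecting duct and red cell anion exchanger Slc4a1 was at 9.65 in Si deplete replicate 3 (9.36 to 9.41). The causes were not tested.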

How the results depend on the processing

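Of the 11 injury probe sets, none passed as higher in the fit reported, 1 passed with an intensity trend and 1 with dim probe sets left out (Spp1 in both, adjusted p = 0.0758 and 0.0918 in limma), and 3 by Storey's q-value (Havcr1, Spp1 and Vim). With each array left out, 0 to 5 passed, and the 5, without Si deplete replicate 3, were Havcr1, Clu, Spp1 (adjusted p = 0.0792), Vim and Gpnmb. None passed as lower in any setting. The 2 listed genes past the threshold became 1 with array weights, 4 with dim probe sets left out, 5 by Storey's q-value, 0 at adjusted p under 0.05, and 0 to 15 with each array left out, 15 of them without Si deplete replicate 3. With the replicate number as a block, 6 injury probe sets and 6 listed genes passed, but same-numbered arrays deviated together only at correlations of -0.088 to 0.09, so the numbers were not taken as pairs, and whether they mark pairs is unknown. The block called 90 of all probe sets higher and 14 lower, and Il6st did not pass with it (adjusted p = 0.115 in limma). Over all probe sets, 0 to 235 were called higher and 0 to 67 lower with an array left out, against 35 and 12. The median log2 fold change of 0.95 was 0.75 to 1.07 with each array left out, and 9 or 10 of the 11 did not overlap, where 12.0% to 16.0% of all probe sets did not, an alternative chosen after seeing the data, as was leaving out arrays for single listed genes. The dimmer Anxa2 probe set (0.02) changed sign, to -0.0201 with array weights, -0.0419 with array medians subtracted, and between -0.0569 and 0.11 with each array left out. The causes were not tested.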
